A study of Zea mays with 4 samples.

Results

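The invertase and sucrose synthase genes of maize (Zea mays) were examined in 2 inbred lines, F98902 and Cm484. Probe sets are groups of short oligonucleotides that read a transcript, and some share sequence with other transcripts. Those of the Affymetrix Maize Genome array were taken where their single annotated gene carried the symbol or synonym ivr1, ivr2, incw1, incw2, incw3, incw4, mn1, sus1, sus2 or sh1. This gave 10 of the 17734 probe sets on the array. They stood for 7 genes: the invertase genes ivr2 (LOC542324), incw1 (LOC542314), incw3 (LOC541678) and mn1 (LOC542590, also named INCW2), and the sucrose synthase genes sus1 (LOC542247), sus2 (LOC542091) and sh1 (LOC542365). No probe set was annotated to ivr1 or incw4, which were not analysed here.

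Total RNA was measured on 4 arrays, 2 for each line. The labels describe F98902 as badly digestible and Cm484 as well digestible. All plants were untreated and were grown in a greenhouse with 14 h of light, at 22 °C in the light and 20 °C in the dark. They were sampled at flowering, 24 h before ovulation. Each line is 1 genotype, so a difference between them cannot be told apart from any other difference between these genotypes. Samples are numbered 1 and 2 within a line, and the labels leave unsaid whether these were separate plants. The p-values therefore rest on a spread that may be only technical. The tissue is uncertain, since the labels give stem under growth and root under RNA extraction.

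Sucrose is the main form in which carbon moves from leaves to the rest of the plant, and 2 kinds of enzyme split it. Invertases cut sucrose irreversibly into glucose and fructose. Those examined here act in the cell wall or in the vacuole, according to the isoform. Sucrose synthases act reversibly, with UDP, and give fructose and UDP-glucose, a sugar donor for cellulose and other polysaccharides. In stems and other sink organs these enzymes are known for drawing sucrose out of the phloem and feeding growth, wall formation and storage.

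Probe set values are GCRMA values on the log2 scale. A value of 5 (log2) was taken as the detection value, and between 54.8% and 55.2% of the probe sets other than controls reached it on each array. A probe set was kept for testing where at least 2 of the 4 arrays reached it. This left 10131 probe sets, of which 3533 (34.9%) were called, meaning an adjusted p under 0.05 in limma. By direction, the calls made up 17.7% of the probe sets tested for higher values in F98902 and 17.1% for higher values in Cm484. Fewer were called with Cm484 replicate 1 left out (2205) or with F98902 replicate 2 left out (2339). Each array's maize housekeeping controls were set against the mean over the remaining arrays. For F98902 replicate 2 the median deviation was -0.83 (log2) over the 5 controls at the 5′ end and 0.00 over the 5 at the 3′ end. The 5′ median was 0.86 for F98902 replicate 1, 0.26 for Cm484 replicate 1 and -0.22 for Cm484 replicate 2. In both lines it was thus positive for replicate 1 and negative for replicate 2.

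The 2 detected invertase genes differed between the lines in opposite directions, and the 3 sucrose synthase genes were not called. The vacuolar invertase ivr2 was strong in Cm484 and near the detection value in F98902. The cell wall invertase incw1 was detected in both lines and was 2.47-fold higher in F98902. Each of these 2 genes was read by 1 probe set, and whether its oligonucleotides match both lines equally was not tested. Of the 10 probe sets, 5 were kept, 1 for each of 5 genes, and 5 lay below the detection value on all 4 arrays. Of the 5 kept, 1 was called higher in F98902, 1 was called higher in Cm484 and 3 were not called. These 2 calls among 5 stand beside a background of 34.9%, so the share called is no result about the family. The median difference of the 5 kept (F98902 minus Cm484) was -0.11 (log2), against -0.02 over all probe sets kept. Their median absolute difference was 0.48, against 0.44 over all probe sets kept. With ivr2 at one end and incw1 at the other, these medians describe neither gene.

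**Figure D1:**
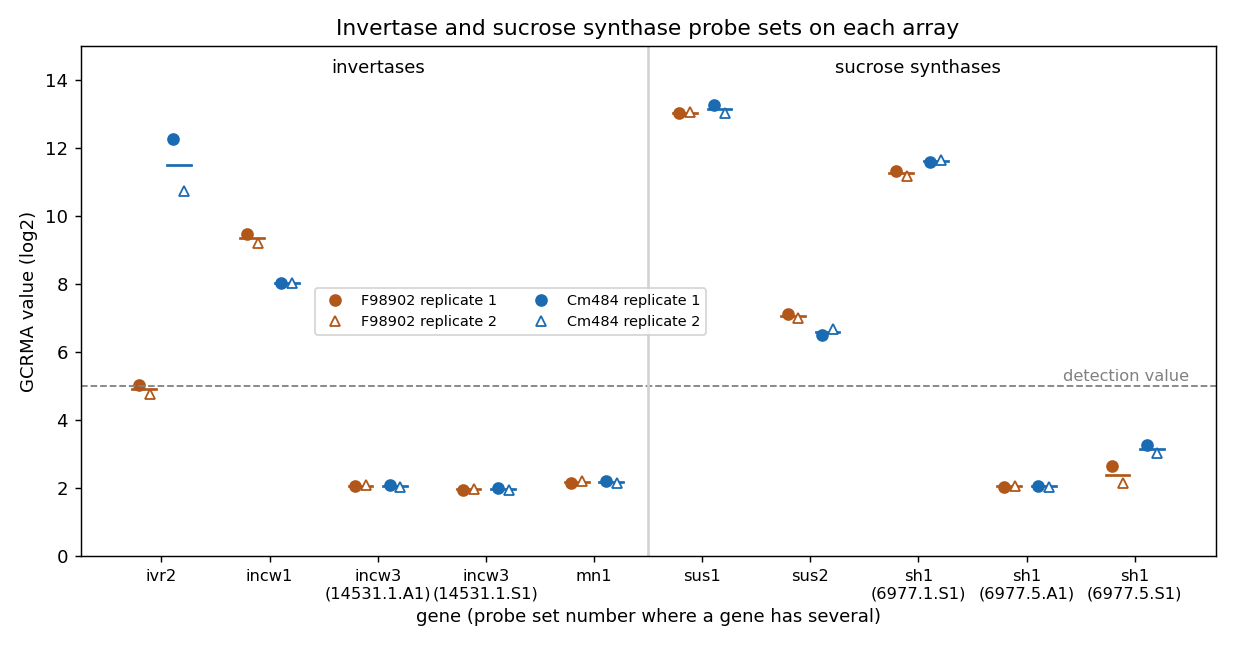
GCRMA values (log2) of the 10 invertase and sucrose synthase probe sets on the 4 arrays, with a horizontal bar at the mean of the 2 samples of each line and a dashed line at the detection value of 5. The lines lie far apart for ivr2 and clearly apart for incw1, while incw3, mn1 and 2 of the 3 sh1 probe sets stay near the bottom of the scale in both lines.

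ivr2 encodes a soluble acid invertase, an enzyme of the vacuole whose activity in sink tissues accompanies cell expansion. Its probe set, Zm.231.1.S1_at, read 5.04 and 4.77 (log2) on F98902 replicates 1 and 2, and 12.28 and 10.74 on Cm484 replicates 1 and 2. Both Cm484 samples were high, both F98902 samples were at or just under the detection value, and the lines did not overlap. The means were 4.91 ± 0.19 (SD, n = 2) in F98902 and 11.51 ± 1.09 (SD, n = 2) in Cm484. The difference of -6.60 ± 0.50 (SE, log2) had a 95% confidence interval from -7.88 to -5.32 (limma adjusted p = 0.000671). Since 1 of the 2 F98902 arrays fell below the detection value, the fold is given as a bound, with that array set to 5. On this basis the signal of ivr2 was 89.7-fold higher in Cm484. That figure is a bound only for the undetected F98902 value and does not cover the spread between samples. With the values as read, the 95% confidence interval ran from 40.05-fold to 235.2-fold, so a fold below 89.7 is not excluded. Only 1 F98902 array reached the detection value, so the filter was met through Cm484 and the probe set was tested because it was high there. With no filter on low values the limma adjusted p was 0.0143.

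The 2 Cm484 samples of ivr2 were themselves 1.54 (log2) apart, or 2.91-fold, the widest gap between samples of a line among the 10 probe sets. Over all kept probe sets, 82 (0.809%) had a gap at least as wide between the Cm484 samples, and 57 of these were lower on Cm484 replicate 2, as ivr2 was. The size of the line difference therefore depended on the Cm484 array. The bound for the undetected value was 52.6-fold without Cm484 replicate 1 and 153-fold without Cm484 replicate 2. Leaving out F98902 replicate 1 or 2 gave 90.9-fold and 88.5-fold. The direction held in each of these cases, the difference running from -7.37 to -5.83 (log2). With a Cm484 array left out, the spread comes from the F98902 samples alone and the Cm484 gap no longer counts. No p-value is given for these fits.

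incw1 encodes a cell wall invertase, an enzyme bound to the wall that splits sucrose outside the cell. Its probe set, Zm.409.1.S1_at, read 9.48 and 9.20 (log2) on F98902 replicates 1 and 2, and 8.04 on both Cm484 arrays. Both F98902 samples lay above both Cm484 samples, and all 4 were well over the detection value. The means were 9.34 ± 0.20 (SD, n = 2) in F98902 and 8.04 ± 0.0009 (SD, n = 2) in Cm484. The difference was 1.30 ± 0.17 (SE, log2), with a 95% confidence interval from 0.87 to 1.74 (limma adjusted p = 0.00417). On the linear scale incw1 was 2.47-fold higher in F98902, with an interval from 1.82-fold to 3.33-fold. Among the 8957 probe sets at or above 5 on all 4 arrays, 10.8% differed between the lines by at least as much. The difference ranged from 1.16 without F98902 replicate 1 to 1.44 without F98902 replicate 2, and kept its direction with any single array left out.

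**Figure D2:**
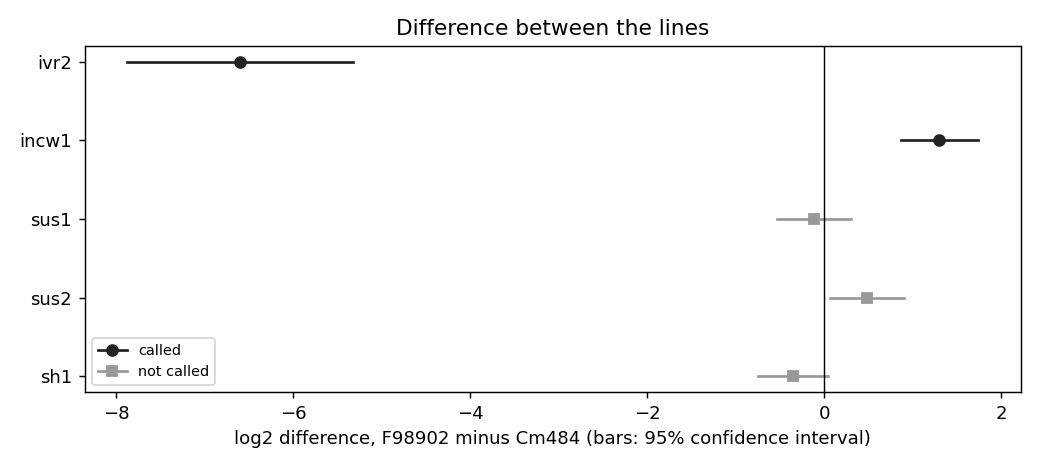
Log2 difference between the lines (F98902 minus Cm484) for the 5 kept invertase and sucrose synthase probe sets, with 95% confidence intervals from limma. The ivr2 interval lies wholly below -5, that of incw1 lies above 0.8, those of sus1 and sh1 include 0, and that of sus2 runs from 0.07 to 0.90. For ivr2, 1 of the 2 F98902 values was below detection, so its difference is not an exact size.

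The other invertase genes were not detected. mn1, the Miniature1 gene, encodes the cell wall invertase that feeds the developing endosperm of the kernel. Its probe set, Zm.1497.1.S1_at, read 2.15 and 2.21 (log2) on F98902 replicates 1 and 2, and 2.19 and 2.15 on Cm484 replicates 1 and 2. incw3, a further cell wall invertase gene, had the probe sets Zm.14531.1.A1_at and Zm.14531.1.S1_at, whose 8 values lay between 1.94 and 2.08. All 3 probe sets were far below the detection value on every array, and values this low have no order. Of the probe sets other than controls, 40.5% were also below 5 on all 4 arrays. In the list of seed and pollen markers, no pollen gene had a probe set. The markers that did were likewise low, with 13 of 14 probe sets below 5 on all 4 arrays. Those of the endosperm transfer layer genes BETL1, betl2, betl3 and betl4 were among the 13. The exception, GLB1 (LOC541815), shares its symbol with a seed globulin and has the haemoglobin synonym Hb.

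Of the sucrose synthases, sus1 was the most even between the lines. Its probe set, Zm.3550.1.A1_at, read 13.02 and 13.05 (log2) on F98902 replicates 1 and 2, and 13.26 and 13.04 on Cm484 replicates 1 and 2. The lines overlapped, since Cm484 replicate 2 lay between the 2 F98902 samples. The difference was -0.11 ± 0.16 (SE, log2), with a 95% confidence interval from -0.53 to 0.30 (limma adjusted p = 0.633). These readings lie toward the top of the arrays' scale, whose highest values were 14.3 to 14.7. Of the probe sets at or above 5 on all 4 arrays, 81.4% differed by at least as much as sus1.

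sh1, the Shrunken1 gene, encodes a sucrose synthase best known from the endosperm, where its loss gives collapsed kernels. The probe set Zm.6977.1.S1_at read 11.33 and 11.18 (log2) on F98902 replicates 1 and 2, and 11.59 and 11.63 on Cm484 replicates 1 and 2. Both Cm484 samples were the higher, by a small margin. The difference of -0.35 ± 0.16 (SE, log2) had a 95% confidence interval from -0.75 to 0.04 and was not called (limma adjusted p = 0.143). Both other sh1 probe sets were below detection everywhere. Zm.6977.5.A1_at read between 2.02 and 2.07, and Zm.6977.5.S1_a_at read 2.65 and 2.14 in F98902 and 3.27 and 3.04 in Cm484. The signal of sh1 thus rests on 1 of 3 probe sets, and a strong signal on one did not come with signal on the others.

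sus2 encodes a further sucrose synthase. Its probe set, Zm.3478.1.S1_a_at, read 7.12 and 7.01 (log2) on F98902 replicates 1 and 2, and 6.49 and 6.68 on Cm484 replicates 1 and 2. Both F98902 samples were above both Cm484 samples, opposite to sh1. The difference was 0.48 ± 0.16 (SE, log2), with a 95% confidence interval for this single probe set from 0.07 to 0.90. Its unadjusted p was 0.0307, but it was not called after adjustment over all probe sets tested (limma adjusted p = 0.0759). A difference of this size or more was found in 41.7% of the probe sets at or above 5 on all 4 arrays. In all, 4 of the 5 kept probe sets had lines that did not overlap, against 72.0% of all probe sets kept. For the 3 sucrose synthases the intervals reach no further than 0.90 (log2) in either direction. They rest on a spread that may be only technical, so larger differences are not excluded. Smaller ones may have gone uncalled with 2 arrays a line.

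**Figure D3:**
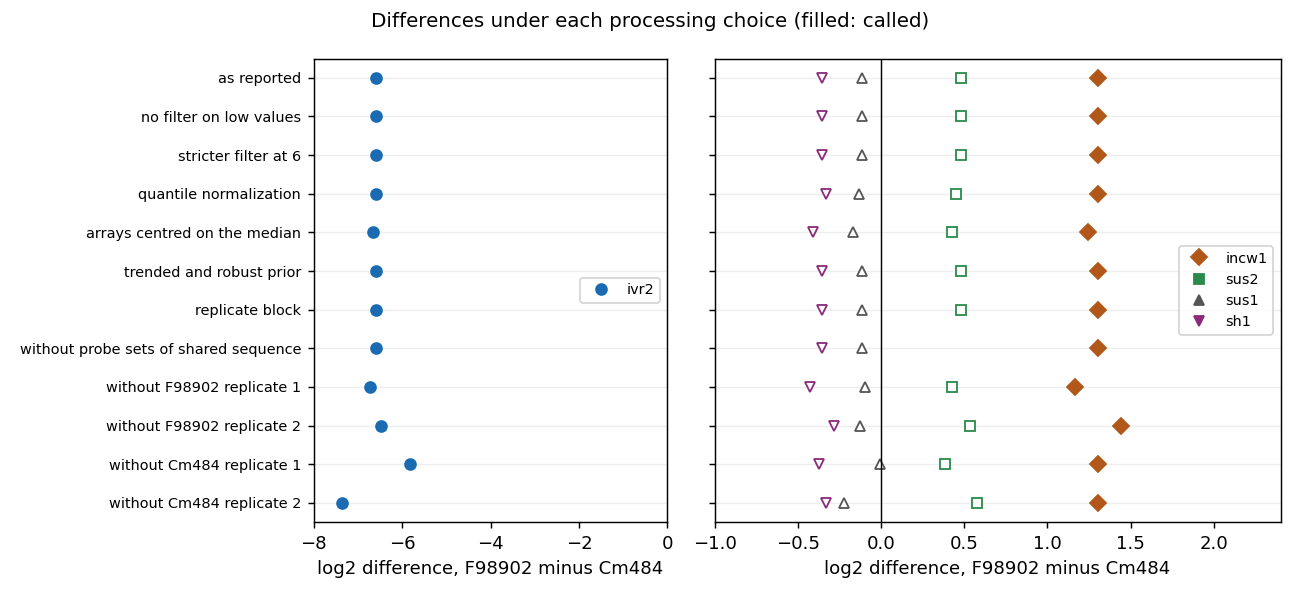
Log2 difference (F98902 minus Cm484) of ivr2 (left) and of incw1, sus2, sus1 and sh1 (right) as reported and under 11 other processing choices, with filled symbols where the adjusted p was under 0.05. ivr2 moves between -7.37 and -5.83 and incw1 between 1.16 and 1.44, filled in each row, whereas the open symbols of the sucrose synthases keep their side of 0. sus2 has no point without probe sets of shared sequence, since its own is one of them, and the ivr2 differences use an F98902 value below detection, so they are not exact sizes.

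Some marker genes of tissues and cell types differed between the lines as well. Of the leaf and photosynthesis markers, 12 of 16 probe sets were kept. Of these, 9 probe sets, for 5 genes, were called higher in F98902, as incw1 was, 1 was called higher in Cm484 and 2 were not called. PPDK and lhcb6 gave 3 of the 9 each, and 17.7% of all probe sets tested were called in that direction. The 3 called PPDK probe sets are ones of shared sequence. The 1 called higher in Cm484 was lhcb5 (LOC542716), at -0.94 (log2). The 2 not called were rbcs1 and a further PPDK probe set, Zm.4471.4.A1_at, whose mean was 8.36 (log2) in both lines. The summed signal of the 16 (linear scale) ran from 30400 to 31250 on the F98902 arrays and from 12890 to 15190 on the Cm484 arrays. Below detection on all 4 arrays were ME1 and 1 probe set each of PPDK and lhcb6, while pep1 reached 5 on 1 F98902 array. The single root marker with a probe set, zrp4 (LOC542706), read 2.34 and 2.07 (log2) in F98902 and 8.83 and 8.59 in Cm484, the direction of ivr2. Of 3 phloem and vascular markers, the potassium channel gene ZMK2 was called higher in F98902, by 0.56 ± 0.16 (SE, log2, limma adjusted p = 0.044), while sut1 and sxd1 were not called. The ZMK2 call was lost with any single array left out, with the arrays centred on their medians and with the replicate number as a block. The part of these markers in the invertase differences was not tested. In RNA from whole tissue, fewer cells of a type and less RNA per cell cannot be told apart.

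The named genes whose pattern over the 4 arrays lay nearest to each called invertase were taken by Euclidean distance between log2 values, each minus its mean over the arrays, among 885 other kept probe sets with 1 annotated gene. For ivr2 the rule named the beta-expansin gene expB7 (LOC542649), zrp4 and gar2 (LOC541620). All 3 were below detection on both F98902 arrays and detected on both Cm484 arrays, so their distances rest in part on values with no order and are not given. gar2 also shared the wide Cm484 gap, at 7.99 and 6.54 (log2) on replicates 1 and 2, whereas expB7 read 10.22 and 9.77 there. Nearest to incw1 were 2 probe sets of the light-harvesting gene lhcb6 (LOC542321, also named CP24) at 0.09 and 0.16, and HMT-2 (LOC541874) also at 0.16. With 4 arrays in 2 lines, such nearness mainly reflects a line difference of like size.

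Of 6 probe sets for genes that make or carry sucrose and other sugars, 3 were kept, and those of SPP2 and MST1 were below detection on all 4 arrays. Among the 3 kept, spp1 (LOC541868), for the phosphatase that completes sucrose synthesis, was called higher in Cm484. It read 9.30 and 8.95 (log2) in F98902 and 9.86 and 9.89 in Cm484, a difference of -0.75 ± 0.18 (SE, limma adjusted p = 0.0307) whose call was lost when either Cm484 array or F98902 replicate 2 was left out. The sucrose transporter gene sut1 (LOC541615) and the sucrose-phosphate synthase gene SPS (LOC542711) were not called, with -0.02 ± 0.22 and 0.07 ± 0.31 (SE, log2). Their 95% confidence intervals ran from -0.58 to 0.55 for sut1 and from -0.72 to 0.87 for SPS. The sut1 probe set is one of shared sequence. The median of the 3 kept was -0.02.

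The products of sucrose splitting enter metabolism through kinases and isomerases, and 2 of 4 such probe sets were called, 1 in each direction, with a median of -0.03 (log2). The fructokinase gene frk2 (LOC542108), whose enzyme phosphorylates fructose, read 11.79 and 11.80 (log2) in F98902 and 12.81 and 12.40 in Cm484. Its difference of -0.81 ± 0.20 (SE, limma adjusted p = 0.0297) had the direction of ivr2, and the call was lost when either F98902 array or Cm484 replicate 1 was left out. phi1 (LOC542313), for phosphohexose isomerase, was higher in F98902 by 0.64 ± 0.16 (SE, log2, limma adjusted p = 0.0353), a call lost with any single array left out. frk1 and pfk1 were not called. Neither of the 2 kept probe sets for sugar signalling was called, akin1 (LOC541867) at -0.38 ± 0.15 and the kinase gene SnrK1 (LOC542687) at 0.03 ± 0.17 (SE, log2).

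Starch genes, which draw on the same hexose phosphates, had 17 probe sets, of which 9 were below detection on all 4 arrays and 8 were kept. Of the 8, the calls numbered 5 for higher values in F98902 and 1 for higher values in Cm484, beside 17.7% and 17.1% of all probe sets tested. Of the 5, bt2 was below detection on both Cm484 arrays and was kept through F98902 alone, so it entered the count only because it was high there. Another of the 5, AGP2 (LOC542737), matched by an ambiguous symbol and may not be a starch gene, yet it enters the count and the medians. The median difference of the 8 was 1.20 (log2), or 0.93 with bt2 at its bound. The 4 calls with the smallest p were GLG1, for ADP-glucose pyrophosphorylase, at 1.74 ± 0.15, and the branching enzyme gene sbe1 (LOC542315) at 2.73 ± 0.28 (SE, log2). AGP2 (LOC542737), an ambiguous symbol, followed at 2.20 ± 0.30 and Agp2 (LOC542072, also Agpsemzm), a pyrophosphorylase subunit, at 1.03 ± 0.15 (SE, log2). The call in the other direction, named because it is the only one, was the branching enzyme gene ae1 (LOC542238) at -1.28 ± 0.20 (SE, log2, limma adjusted p = 0.0077). That probe set read 5.10 and 5.38 in F98902, just over the detection value, and 6.35 and 6.70 in Cm484. Another probe set of this locus, Zm.143.3.S1_a_at, was below detection on all 4 arrays, between 2.29 and 2.37.

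**Figure D4:**
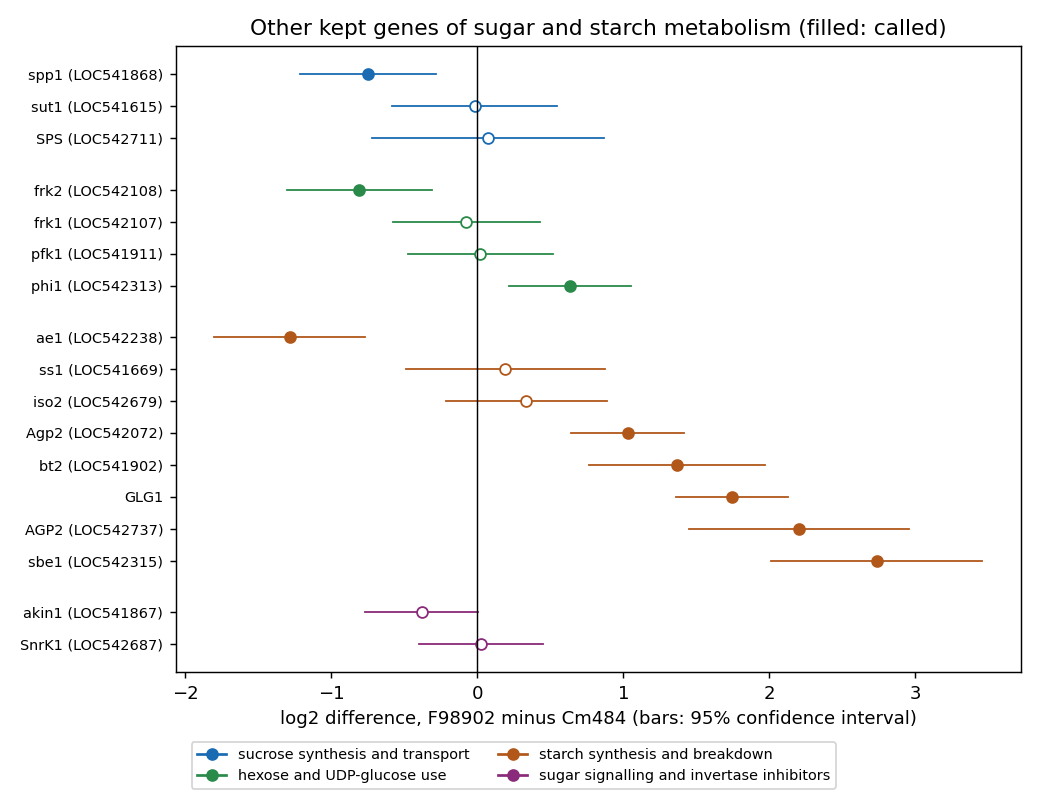
Log2 difference (F98902 minus Cm484) with its 95% confidence interval for each of the 17 kept probe sets in the lists of sucrose synthesis and transport, hexose and UDP-glucose use, starch, and sugar signalling, filled where called. Starch genes lie mostly to the right of 0, among them AGP2, matched by an ambiguous symbol, and the other lists scatter about it. For bt2, which was under detection on both Cm484 arrays, the difference is not a measured size.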

How the data were processed

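RNA of 4 samples, 2 a line, was hybridised to 4 one-colour arrays. Per the submitters' processing notes, the authors made the deposited log2 values with GCRMA in R 2.6.2, which corrects background, normalizes by quantiles and summarises probes. Any further steps were not stated. Gene names came from the platform annotation, updated through gene identifiers to the RefSeq table (assembly Zm-B73-REFERENCE-NAM-5.0), where all 7 genes were found. Of 17734 probe sets, 1452 had 1 gene, 1 had several and 16281 had none in the table, so further probe sets for these genes may be unnamed. The 113 controls were left out.

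The comparison of F98902 with Cm484 used limma 3.58.1 (R 4.3.3), fitting the line alone with lmFit and moderating variances with eBayes. The fit had 2 residual degrees of freedom and a prior of 3.26. Two-sided p-values were adjusted by Benjamini-Hochberg over all 10131 probe sets kept. The number of arrays limits the precision. Levels of the invertase and sucrose synthase probe sets were not ranked against each other. The text names every member, the 3 nearest patterns and, ordered by p, at most 4 called genes from each list of related genes, or 2 from a list with no call. Members, lists and rules were chosen with earlier results of these data known. sus1 matched the starch list by its synonym ss2 and was left out of it, and LOC541992 (ae1) and LOC541974 (tps1, also named KS) matched by symbols that other genes share. Of the seed and pollen list, 1 probe set was kept and not called. The steps were tested on simulated data. Over all probe sets kept, same-numbered samples of the 2 lines did not deviate together (r = -0.02, 2 pairs), so the numbers were not taken as pairs. The 5′ controls did share a sign by number, and the replicate number was fitted as a block among the alternatives.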

Additional observations from a re-analysis of the deposited data

How the results depend on the processing

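Across 11 alternatives (no filter, a filter at 6, quantile normalization, median centring, a trended and robust prior, the replicate number as a block, probe sets of shared sequence left out, and each array left out), 2 invertase and sucrose synthase probe sets were called in each. ivr2 and incw1 were called in all 11 and kept their direction. Where an array was left out, those calls rest on the spread of 1 line alone. sus1, sus2 and sh1 were called in none and kept their sign, sus2 in the 10 that tested it. The replicate block left -6.60 for ivr2 and 2983 calls over all probe sets, and changed no call of these genes. With each array left out, all calls ranged from 2205 to 2706, those for hexose and UDP-glucose use from 0 to 1 and those for sucrose synthesis and transport from 0 to 1. Hexose and UDP-glucose use gave 1 call with no filter, with median centring and with the block. Sucrose synthesis and transport gave 0 calls with no filter and with the block. The cause was not tested, except that leaving out an array leaves fewer samples. The lone sample left is then assumed to vary like the other line.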
